A study of Mus musculus with 18 samples.

Results

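The MYC, MAX and MXD family of transcription factors was followed here through 10 genes in mouse embryonic stem cells exposed to DNA damage. The members were Myc, Mycn, Mycl, Max, Mxd1, Mxd3, Mxd4, Mxi1, Mnt and Mga, chosen by name, and all 10 were among the 19935 genes measured. Each was read by 1 array probe set whose annotation names that gene alone, so no choice between probes arose. The levels below are log2 intensities as deposited, where a difference of 1 is a doubling, and a level is compared only with levels of the same probe.

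The 18 whole-transcript arrays fell into 5 groups. The mouse embryonic stem cell line R1E was harvested 8 hours after adriamycin at 0.5 µM, 8 hours after UV at 25 J/m2, or after mock treatment, with 4 arrays each. Embryonic stem cells labelled p53-/-, of a 129X1 x 129S1 background, were harvested 8 hours after adriamycin at 0.5 µM or untreated, with 3 arrays each. All the cells were grown with LIF, the cytokine that keeps mouse embryonic stem cells undifferentiated. Adriamycin (doxorubicin) poisons topoisomerase II and breaks DNA, and UV light makes pyrimidine dimers that block transcription. Whether replicate arrays stand for separate cultures is not in the labels, so each p-value reflects only the scatter among these arrays, part of which may be technical. Genotype, cell line, array set and the software that normalized each set cannot be told apart, and the p53-/- label was not checked on the Trp53 gene, which was not analysed here.

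MYC, MYCN and MYCL are basic helix-loop-helix leucine zipper proteins that bind DNA only as a dimer with MAX, mostly at the E-box CACGTG, and raise transcription of genes for growth, ribosome production and metabolism. MXD1, MXD3, MXD4, MXI1 and MNT compete for MAX and for the same E-boxes and bring in SIN3 histone deacetylase complexes, while MGA pairs with MAX inside the variant Polycomb complex PRC1.6, which keeps germline genes silent in embryonic stem cells. Myc and Mycn are both expressed in mouse embryonic stem cells and can stand in for each other in self-renewal, and both proteins and mRNAs are short-lived.

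The promoters that carry a searched motif are shown because they belong to members that moved in opposite directions. Each runs from 250 bases before to 50 bases after an annotated start site, from RefSeq on GRCm38.p6. For Mycn and Mxd4 that site is where the RefSeq gene span begins. For Max and Mnt it lies inside the span, which begins at 76962323 for Max and at 74830806 for Mnt. The motifs were chosen after the sequences had been viewed, and both strands were searched. Capitals mark the E-box CACGTG in Max, Mxd4 and Mnt, and in Mycn the stretch of E2F-type letters (TTTGGCGC on the strand shown or TTTCGCGC on the other strand). The Mycn window is chr12:12941787-12942086 (minus strand), that of Max chr12:76962199-76962498 (minus strand), that of Mxd4 chr5:34187661-34187960 (minus strand) and that of Mnt chr11:74830674-74830973 (plus strand).
Mycn: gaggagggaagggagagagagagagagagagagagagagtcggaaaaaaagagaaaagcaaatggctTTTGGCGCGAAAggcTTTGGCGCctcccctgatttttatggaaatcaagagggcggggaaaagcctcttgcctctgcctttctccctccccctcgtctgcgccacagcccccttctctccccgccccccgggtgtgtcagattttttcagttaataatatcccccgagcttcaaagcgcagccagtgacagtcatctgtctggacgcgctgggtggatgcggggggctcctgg
Max: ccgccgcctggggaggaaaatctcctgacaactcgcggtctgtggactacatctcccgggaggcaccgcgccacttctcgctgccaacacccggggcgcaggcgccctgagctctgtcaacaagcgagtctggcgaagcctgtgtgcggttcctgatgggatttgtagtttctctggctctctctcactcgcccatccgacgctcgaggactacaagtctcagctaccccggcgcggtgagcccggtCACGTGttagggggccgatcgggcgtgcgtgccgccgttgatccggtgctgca
Mxd4: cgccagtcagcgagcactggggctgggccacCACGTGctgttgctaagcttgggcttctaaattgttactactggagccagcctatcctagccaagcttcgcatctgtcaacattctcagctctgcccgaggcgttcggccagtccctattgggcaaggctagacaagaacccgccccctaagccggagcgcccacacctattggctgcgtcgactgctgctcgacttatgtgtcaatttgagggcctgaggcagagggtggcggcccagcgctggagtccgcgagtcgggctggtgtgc
Mnt: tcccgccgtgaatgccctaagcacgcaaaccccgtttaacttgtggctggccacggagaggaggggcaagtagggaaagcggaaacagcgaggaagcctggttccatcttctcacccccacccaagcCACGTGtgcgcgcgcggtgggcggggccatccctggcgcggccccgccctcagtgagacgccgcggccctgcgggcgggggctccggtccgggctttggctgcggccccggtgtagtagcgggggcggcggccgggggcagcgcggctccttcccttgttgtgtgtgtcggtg

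The RefSeq table used held promoters for 9 of the 10 members, 11 promoters in all because Mxi1 had 3. CACGTG stood in 3 of these 11 and in 7.15% of the 32851 mouse promoters of that length. Counted from the start site of each window, it lay at -3 to 3 in Max, -219 to -214 in Mxd4 and -123 to -118 in Mnt. TTTGGCGC stood at -183 to -176 and at -168 to -161 in Mycn, among 0.514% of all promoters that hold it. TTTCGCGC, held by 0.323% of all promoters, lay on the minus strand of Mycn at -179 to -172 and overlapped the first of these. TTTCCCGC was in 1.07% of all promoters and in none of the 11. The promoters with CACGTG belonged to genes that moved both ways after adriamycin in R1E cells, Max and Mnt downward and Mxd4 upward. A match of letters is a description of the sequence and not a binding site.

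Stem cell markers were high on every array, and markers of other lineages were partly present. All 9 stem cell markers lay above the array median on 18 of 18 arrays, and the mean of the list was 10.50 to 10.63 after adriamycin, 10.95 to 11.04 after UV and 11.23 to 11.29 in mock-treated R1E arrays. Of the 9, 8 were called lower after adriamycin and 6 after UV, beside 25.6% and 21.2% of all genes. Zfp42 was at -1.75, Nanog at -1.12 and Esrrb at -0.72 after adriamycin (log2 change). In the p53-/- set the mean was 10.26 to 10.37 after adriamycin and 10.29 to 10.51 in untreated cells. None of the 9 was called there, beside 0.0953% of all genes.

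Of 9 fibroblast markers, Col1a1 and Thy1 lay above the array median on 18 of 18 arrays, Pdgfrb on 14, Col1a2 on 11, Pdgfra on 8, Col3a1 and Postn on 6 each, and Dcn and Lum on 0. Their mean was 6.82 to 7.22 after adriamycin and 7.11 to 7.20 in untreated p53-/- cells. In R1E cells it was 5.13 to 5.26 after adriamycin, 5.13 to 5.24 after UV and 5.02 to 5.13 after mock treatment. After adriamycin in R1E cells 3 of them rose, with Col1a1 at 0.60 and Pdgfra at 0.56, and Thy1 fell, at -0.35 (log2 change). Of all genes 22.1% were called higher and 25.6% lower there.

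Of 6 endoderm markers, Gata4 and Gata6 lay above the array median on 18 of 18 arrays and Afp and Ttr on 1 each. Their mean was 6.14 to 6.51 after adriamycin and 6.37 to 6.44 in untreated p53-/- cells, against 4.96 to 5.26 over the R1E arrays. After adriamycin in R1E cells 1 of the 6 (Gata6, -0.23) was called, beside 47.7% of all genes. Of 5 neural markers, Neurod1 changed by 2.13, Tubb3 by -0.83 and Pax6 by -0.74 after adriamycin in R1E cells. In all 1 rose and 3 fell, beside 22.1% of all genes higher and 25.6% lower. The neural mean was 6.40 to 6.53 after adriamycin, 6.61 to 6.64 after UV and 6.45 to 6.51 after mock treatment in R1E cells, and 6.48 to 6.59 after adriamycin and 6.22 to 6.48 untreated in p53-/- cells. No marker of these lists was called in p53-/- cells, where 0.0953% of all genes were. Levels of the sets stand side by side after separate normalization, and the part of other cell types in the results was not tested. In bulk RNA, fewer cells of a type and less RNA per cell cannot be told apart.

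The median correlation of an array with the others of its group was 0.9975 to 0.9985 in R1E and 0.9847 to 0.9926 in p53-/- cells. The median standard error of a gene's change was 0.063 in R1E and 0.14 in p53-/- cells, so the p53-/- comparison is the less precise.

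Adriamycin in R1E cells moved 9 of the 10 family genes. Mycn, Myc, Mga, Mnt, Max, Mxi1 and Mxd3 fell, Mxd4 and Mxd1 rose, and Mycl was not called. Calls are from limma over all 19935 genes at a Benjamini-Hochberg adjusted p below 0.05, and 47.7% of all genes were called in this comparison, 22.1% higher and 25.6% lower. The 9 called genes also had groups that did not overlap, against 45.6% of all genes. The median change of the 10 was -0.45, against -0.02 over all genes. When each array was centred on its own median, all changes moved by -0.13 and the calls over all genes became 16.5% higher and 48.4% lower, while the family kept 2 higher and 7 lower.

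**Figure D1:**
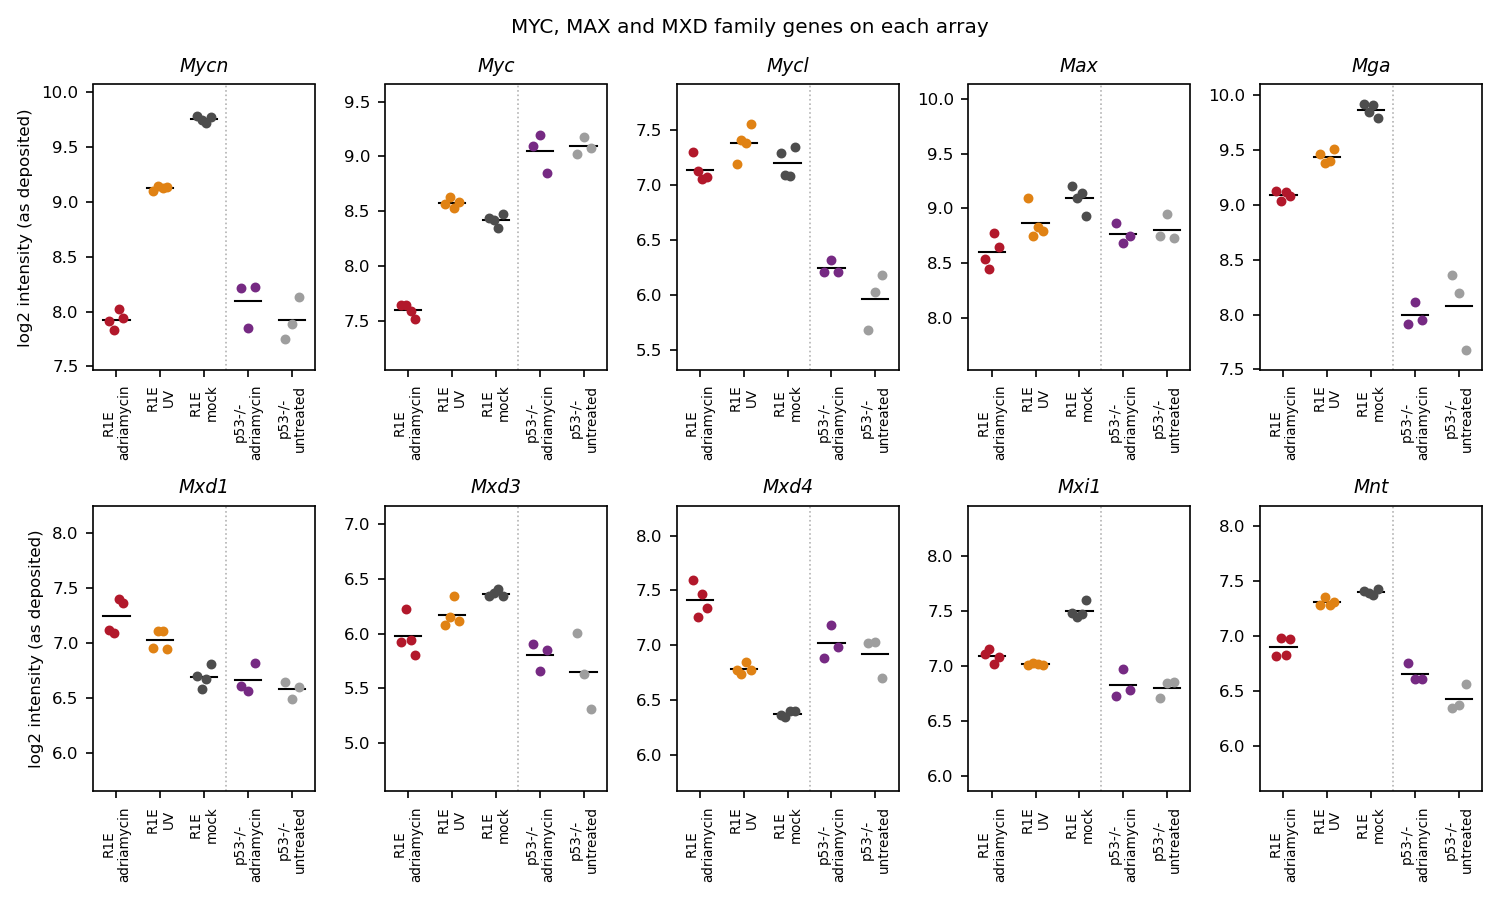
Log2 intensity of each family gene on every array, 1 panel per gene, with points for arrays and a bar for the group mean; the dotted line parts the R1E arrays (4 per group) from the p53-/- arrays (3 per group), which were normalized separately. Mycn sits between 7.83 and 8.03 after adriamycin, between 9.10 and 9.15 after UV and between 9.72 and 9.79 in mock-treated R1E arrays.

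Mycn, the MYC paralogue named for its amplification in neuroblastoma, had the largest change of the family. Its levels were 7.91, 7.83, 8.03 and 7.94 on the adriamycin arrays and 9.79, 9.75, 9.72 and 9.77 on the mock arrays of R1E cells. The 4 adriamycin arrays all lay far below the 4 mock arrays, with little spread within either group. The change was -1.83 ± 0.05 (log2, SE, n = 4 each), or 3.56-fold lower, with an adjusted p of 3.2e-14 in limma, and 0.145% of all genes had a lower change.

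Myc, the founding member of the family, also fell after adriamycin, by less. Its levels were 7.65, 7.65, 7.60 and 7.52 on the adriamycin arrays and 8.44, 8.42, 8.35 and 8.48 on the mock arrays. The groups did not overlap. The change was -0.82 ± 0.05 (log2, SE, n = 4 each; adjusted p in limma 6.08e-10), 1.76-fold lower. Mycl, the third MYC paralogue, averaged 7.14 ± 0.11 on adriamycin arrays and 7.20 ± 0.14 on mock arrays (SD, n = 4 each), overlapping groups with an adjusted p of 0.589 in limma.

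Max, the partner shared by all the other members, had levels of 8.54, 8.45, 8.77 and 8.65 after adriamycin and 9.21, 9.09, 9.14 and 8.93 after mock treatment. All adriamycin arrays were below all mock arrays, though Max spread more within groups than Mycn did. It fell by 0.49 on the log2 scale (SE 0.08, adjusted p in limma 0.000118). Mga, the large MAX partner with a second, T-box, DNA-binding domain, had 9.12, 9.03, 9.12 and 9.08 after adriamycin and 9.92, 9.84, 9.91 and 9.79 after mock treatment. The groups were tight and apart, a change of -0.78 ± 0.05 (log2, SE, n = 4 each; adjusted p in limma 1.14e-09), 1.71-fold lower.

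The MAX-binding antagonists split. Mxd4, linked to differentiation and to restraint of the cell cycle, had levels of 7.59, 7.26, 7.47 and 7.34 after adriamycin and 6.36, 6.34, 6.40 and 6.40 after mock treatment. Every adriamycin array lay above every mock array, and the change was 1.04 ± 0.06 (log2, SE, n = 4 each; adjusted p in limma 5.88e-10), 2.06-fold higher. Mxd1, first described as MAD, had 7.11, 7.09, 7.40 and 7.37 after adriamycin and 6.70, 6.58, 6.67 and 6.81 after mock treatment. It too was higher on all adriamycin arrays, 1.47-fold, with an adjusted p of 1.12e-05 in limma.

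The other antagonists went down with the MYC genes. Mnt, the widely expressed antagonist that also binds MLX, averaged 6.90 ± 0.09 after adriamycin and 7.40 ± 0.02 after mock treatment (SD, n = 4 each), a change of -0.50 (adjusted p in limma 2.88e-07). Mxi1, also called MXD2, averaged 7.09 ± 0.06 after adriamycin and 7.50 ± 0.07 after mock treatment (SD, n = 4 each), a change of -0.41 (adjusted p in limma 2.51e-06). Mxd3, the antagonist expressed in proliferating cells, averaged 5.97 ± 0.18 after adriamycin and 6.36 ± 0.03 after mock treatment (SD, n = 4 each), a change of -0.39 (adjusted p in limma 0.000474). The Mxd3 probe lay above the array median on 1 of 4 adriamycin arrays and on 4 of 4 mock arrays, while the probes of the other members did so on all 18 arrays.

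UV in R1E cells moved fewer members and, for Myc, went the other way. Of the 10 genes 3 rose (Mxd4, Mxd1 and Myc), 4 fell (Mycn, Mxi1, Mga and Max) and Mycl, Mxd3 and Mnt were not called, beside 43.9% of all genes called, 22.6% higher and 21.2% lower. The groups of 7 members did not overlap, against 40.7% of all genes. The family median was -0.14, against 0.03 over all genes. With each array centred on its median the split became 2 higher and 6 lower, since the rise of Myc was lost and the falls of Mxd3 and Mnt were called, and over all genes 15.6% were then higher and 28.5% lower.

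Mycn had 9.10, 9.15, 9.13 and 9.13 on the UV arrays, against 9.79, 9.75, 9.72 and 9.77 on the mock arrays. All UV arrays lay below the mock arrays and above the adriamycin arrays. The change was -0.63 ± 0.05 (log2, SE, n = 4 each; adjusted p in limma 2.09e-08), 1.55-fold lower. Myc had 8.57, 8.63, 8.53 and 8.59 on the UV arrays, against 8.44, 8.42, 8.35 and 8.48 on the mock arrays. The groups did not overlap but lay close, with a change of 0.16 ± 0.05 (log2, SE, n = 4 each; adjusted p in limma 0.0166). That call was lost with centred arrays (change 0.08, adjusted p 0.219) and without mock replicate 3 (change 0.13, adjusted p 0.0617).

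Among the antagonists, Mxd4 had 6.78, 6.74, 6.85 and 6.78 after UV, against 6.36, 6.34, 6.40 and 6.40 after mock treatment. All UV arrays were higher, by 0.41 on the log2 scale (adjusted p in limma 4.67e-05). Mxd1 had 6.95, 7.11, 7.11 and 6.95 after UV and 6.70, 6.58, 6.67 and 6.81 after mock treatment, again without overlap and higher by 0.34 (adjusted p in limma 0.00168). Mxi1 had 7.01, 7.03, 7.02 and 7.01 after UV, against 7.48, 7.44, 7.47 and 7.60 after mock treatment. Its fall of 0.48 on the log2 scale (adjusted p in limma 5.46e-07) stood beside a fall of 0.41 after adriamycin. Mga averaged 9.44 ± 0.06 after UV and 9.86 ± 0.06 after mock treatment (SD, n = 4 each), a change of -0.43 (adjusted p in limma 2.37e-06).

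For Max the UV call was weak. The arrays overlapped, with 9.10, 8.75, 8.84 and 8.79 after UV and 9.21, 9.09, 9.14 and 8.93 after mock treatment, and the adjusted p in limma was 0.0406. It was lost with quantile normalization (adjusted p 0.0668) and without UV replicate 2, 3 or 4 or mock replicate 1, 2 or 3 (adjusted p 0.0733 to 0.121 in limma). Mxi1 and Mga, which fell after UV, are also the members with the longest genes, spanning 63.2 kb and 97.6 kb in RefSeq against 4.73 to 25.1 kb for the other members, and the part of gene length was not tested.

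**Figure D2:**
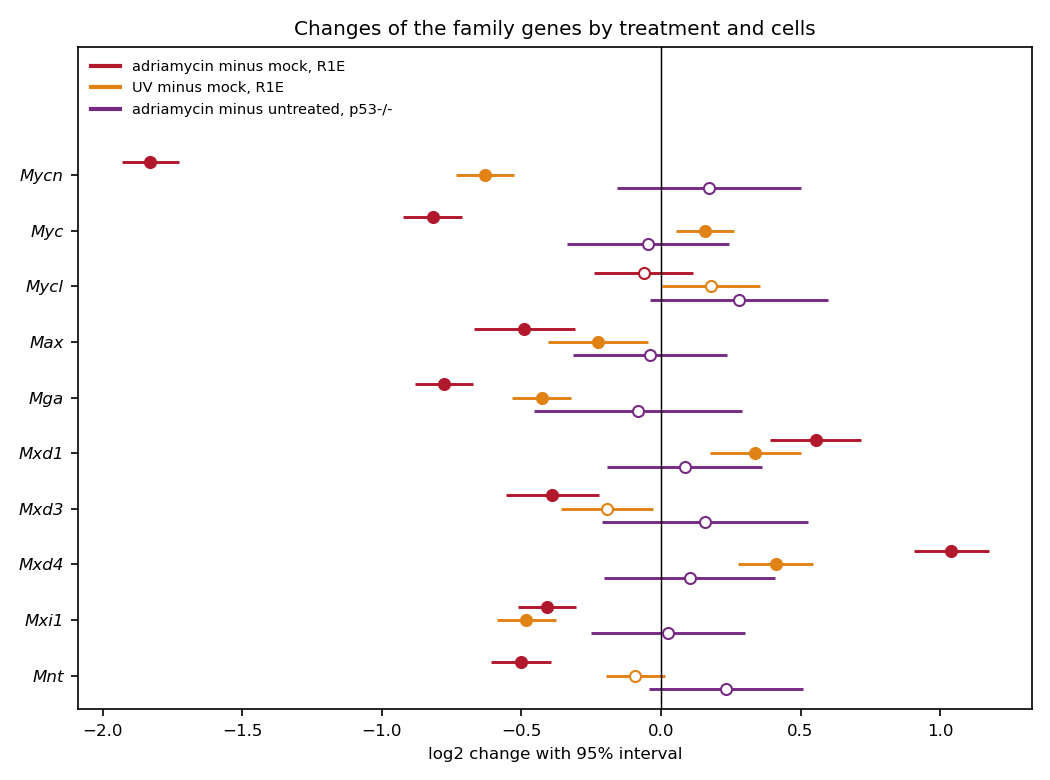
Log2 change of each family gene with its 95% interval after adriamycin in R1E, after UV in R1E (n = 4 arrays each, sharing the mock arrays) and after adriamycin in p53-/- cells (n = 3 each); filled points were called at an adjusted p below 0.05 and open points were not. Mycn is at -1.83 and -0.63 in R1E and at 0.17 in p53-/- cells, where all 10 points are open.

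Adriamycin and UV in R1E cells share the mock arrays, so the treatments were set against each other directly. Of the 10 genes 2 were higher after adriamycin than after UV (Mxd4 and Mxd1), 6 were lower (Mycn, Myc, Mnt, Mga, Max and Mycl) and Mxd3 and Mxi1 were not called, beside 42% of all genes called, 19.8% higher and 22.2% lower. With centred arrays, or with quantile normalization, 1 was higher and 7 were lower, since the call of Mxd1 ended and Mxd3 was called. Centring also turned the split over all genes to 17.1% higher and 32.2% lower.

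Mycn and Myc stood furthest down in that contrast. Mycn was lower after adriamycin by 1.20 (log2 change -1.20 ± 0.05, SE, n = 4 each; adjusted p in limma 3.49e-11), and 0.135% of genes had a lower difference. Myc differed nearly as much, with a log2 change of -0.97 ± 0.05 (SE, n = 4 each; adjusted p in limma 3.34e-10) and 0.321% of genes lower. Mxd4 was higher after adriamycin by 0.63 (adjusted p in limma 6.07e-07). Mnt was lower by a log2 change of -0.41 (adjusted p in limma 5.65e-06) and Mga by one of -0.35 (adjusted p in limma 2.52e-05). Of the 10 genes 5 had adriamycin and UV arrays that did not overlap, against 38.3% of all genes, and these were Mycn, Myc, Mxd4, Mnt and Mga. The smaller differences lay near the threshold, and each lost its call when any 1 of several arrays was left out. Mycl (log2 change -0.24, adjusted p in limma 0.0276) lost its call without adriamycin replicate 3 or 4 or UV replicate 2, 3 or 4 (adjusted p 0.0519 to 0.0971). Max (-0.26, adjusted p in limma 0.019) lost it without adriamycin replicate 1 or 2 or UV replicate 1 (0.0526 to 0.0699), and Mxd1 (0.22, adjusted p in limma 0.0319) without adriamycin replicate 3 or 4 or UV replicate 1 or 4 (0.0853 to 0.11).

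Mycn was set against each other member within arrays, so that any shift common to an array cancels. The Mycn level minus the level of the other gene was taken on each array, and its mean was compared between groups. After adriamycin in R1E cells Mycn moved 1.01 log2 units further down than Myc (difference -1.01 ± 0.06, SE, n = 4 each). Against the antagonists the difference was -1.33 ± 0.08 for Mnt, -1.42 ± 0.08 for Mxi1, -1.44 ± 0.12 for Mxd3, -2.38 ± 0.07 for Mxd1 and -2.87 ± 0.07 for Mxd4. It was -1.05 for Mga, -1.34 for Max and -1.77 for Mycl.

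After UV the same differences were -0.79 ± 0.02 against Myc, -0.15 ± 0.03 against Mxi1, -0.20 ± 0.05 against Mga and -0.40 ± 0.11 against Max (SE, n = 4 each). Against Mxd3 the value was -0.44, against Mnt -0.54, against Mycl -0.81, against Mxd1 -0.97 and against Mxd4 -1.04. Between adriamycin and UV arrays the difference against Myc was -0.23 ± 0.06, and against Mxd4 it was -1.83 ± 0.07. All 27 differences in R1E cells had groups that did not overlap and an exact two-sided permutation p of 0.0286, the smallest that 4 against 4 allows, or 0.0381 adjusted over 36 differences.

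**Figure D3:**
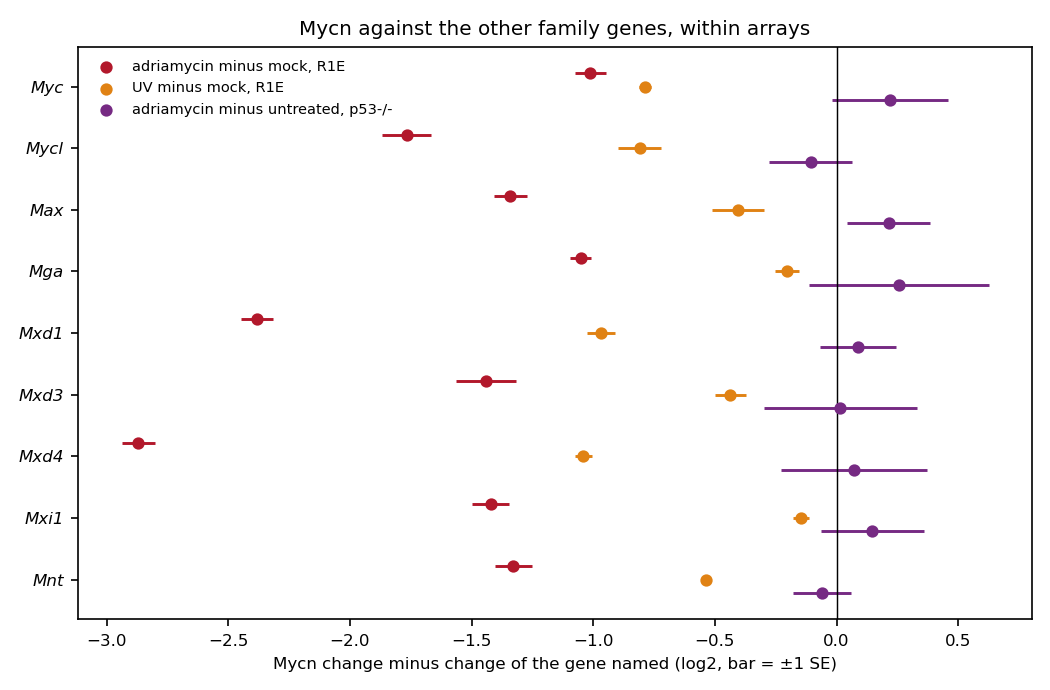
Change of Mycn minus the change of each other family gene, taken within arrays, on the log2 scale with bars of 1 SE, after adriamycin and after UV in R1E (n = 4 arrays each) and after adriamycin in p53-/- cells (n = 3 each). All R1E points lie left of 0, from -2.87 for Mxd4 after adriamycin to -0.15 for Mxi1 after UV, and the p53-/- points lie between -0.11 and 0.26.

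In p53-/- cells none of the 10 genes was called after adriamycin, by limma's adjusted p or at an unadjusted p below 0.05. Of all genes 19, or 0.0953%, were called there (0.015% higher and 0.0803% lower), and 11.6% had an unadjusted p below 0.05. The family median was 0.09, against 0.06 over all genes. Mycl and Mnt were the members whose groups did not overlap, 2 of 10, against 17.5% of all genes.

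Mycn had 8.21, 7.85 and 8.22 on the adriamycin arrays and 7.75, 7.88 and 8.13 on the untreated arrays of p53-/- cells. The groups overlapped. The change was 0.17 ± 0.15 (log2, SE, n = 3 each; adjusted p in limma 0.704), with a 95% interval of -0.16 to 0.50, which leaves out falls as large as that in R1E cells. Myc had 9.10, 9.19 and 8.85 after adriamycin and 9.02, 9.18 and 9.08 untreated, also overlapping, with a change of -0.05 and an interval of -0.34 to 0.24. Mxd4 had 6.89, 7.19 and 6.99 after adriamycin and 7.02, 7.03 and 6.71 untreated, a change of 0.10 with an interval of -0.21 to 0.41. The sets did not start alike, by level minus the array's median. Mycn stood at 2.17 to 2.55 in untreated p53-/- cells, against 3.80 to 3.87 in mock and 1.80 to 1.98 in adriamycin-treated R1E cells. Mxd4 stood at 1.127 to 1.445, against 0.44 to 0.48 and 1.23 to 1.55. Myc stood at 3.45 to 3.57, above the 2.43 to 2.54 of mock R1E cells. The sets were normalized separately, and the part of the starting level was not tested.

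Mnt was slightly above its controls on each array, at 6.75, 6.61 and 6.61 after adriamycin, against 6.34, 6.37 and 6.56 untreated, and its change of 0.23 did not pass (adjusted p in limma 0.504). Mycl had 6.21, 6.31 and 6.21 after adriamycin and 5.68, 6.02 and 6.18 untreated, a change of 0.28 (adjusted p in limma 0.491). Changes of the other 5 members ran between -0.08 for Mga and 0.16 for Mxd3. Within arrays, Mycn minus Myc changed by 0.22 ± 0.24 (SE, n = 3 each; exact permutation p 0.5, where 3 against 3 cannot go below 0.1), and over all 9 partners that exact p was 0.3 to 1.

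The adriamycin effect itself was then compared between R1E and p53-/- cells. The test of the difference used the effects and standard errors of both limma fits and is described with the processing. The difference of effects was called for 9 of the 10 genes, 7 of them lower in R1E and 2 (Mxd4 and Mxd1) higher, beside 21.7% of all genes called, 10.4% higher and 11.4% lower. Its family median was -0.50, against -0.07 over all genes. Mycn differed by -2.003 ± 0.16 (log2, SE, 4 against 4 and 3 against 3 arrays). Its adjusted p in the test of the difference was 3.4e-07, and 0.11% of all genes had a lower difference. The difference was 0.94 ± 0.15 for Mxd4, -0.77 ± 0.14 for Myc and -0.73 ± 0.14 for Mnt. The adjusted p in the test of the difference was 0.000246, 0.000883 and 0.000831 in that order.

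For the remaining members the difference was nearer the threshold. It was -0.69 for Mga and 0.47 for Mxd1 (adjusted p in the test of the difference 0.0114 and 0.0272). For Mxi1, Max and Mxd3 it was -0.43, -0.45 and -0.55 (adjusted p in the same test 0.0309, 0.0377 and 0.0447). Mga lost its call without p53-/- adriamycin replicate 2 (adjusted p in the test of the difference 0.0593). Mxd1 lost it without R1E adriamycin replicate 3, p53-/- untreated replicate 1 or p53-/- adriamycin replicate 1 or 2, and Mxi1 without p53-/- untreated replicate 1 or 2 or any 1 of the p53-/- adriamycin arrays (adjusted p up to 0.101 and 0.126). Max and Mxd3 lost it without any 1 of 9 arrays each, of both lines (adjusted p up to 0.137 and 0.151). The count over the family was 5 without p53-/- adriamycin replicate 1 and 4 without p53-/- adriamycin replicate 2. Mycl was not called (difference -0.34, adjusted p in the test of the difference 0.17).

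The genes whose levels ran most like Mycn over the 12 R1E arrays were Prdm14, Anxa7, Esrrb, Zic5 and Sfrp1. Pearson's r was 0.998 for Prdm14, a germ cell and pluripotency factor, 0.9975 for Esrrb, a nuclear receptor of the pluripotency network, and 0.997 for Sfrp1, a secreted WNT antagonist. The 12 arrays share treatment groups, so r mostly describes the order of the 3 group means. Prdm14 changed by -2.77 after adriamycin and by -0.996 after UV, and Zic5, a zinc finger factor, by -2.71 and -0.95. Neither was called in p53-/- cells, with changes of 0.15 and -0.25 (adjusted p in limma 0.73 and 0.487).

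Closest to Myc were Tprn, Rpp25, Noct, Atxn2l and Trh, with r of 0.9913 for Tprn and 0.9875 for Trh. Trh, the thyrotropin-releasing hormone precursor, fell by 1.39 on the log2 scale after adriamycin and rose by 0.26 after UV (adjusted p in limma 6.26e-12 and 0.0019). Noct, a circadian NADP(H) phosphatase, changed by -1.11 after adriamycin (adjusted p in limma 4.47e-11) and by 0.05 after UV (adjusted p 0.46, not called).

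Genes that MYC-MAX dimers are known to activate were mostly lower after adriamycin in R1E cells. Of 37 listed targets 35 were measured, and 23 fell, 4 rose and 8 were not called, with a median change of -0.33, beside 25.6% of all genes lower and 22.1% higher. With centred arrays 29 targets were lower and 3 higher, beside 48.4% and 16.5% of all genes. Ccnd2, cyclin D2, fell by 1.47 on the log2 scale, and Tfrc, the transferrin receptor, fell by 0.96 (adjusted p in limma 8.42e-12 and 5e-11). Tert, the catalytic subunit of telomerase, rose by 1.33 (adjusted p in limma 6.95e-11). The other risers, named after their values were seen, were Prps2 and Cad of nucleotide synthesis, by 0.96 and 0.83, and Pa2g4, a growth-linked RNA-binding protein, by 0.13.

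After UV, 13 of the 35 targets fell, 4 rose and 18 were not called, with a median of -0.04, beside 21.2% of all genes lower and 22.6% higher. With quantile normalization the UV split was 10 lower and 8 higher, beside 22.7% of all genes lower and 19.9% higher. Ccnd2 changed by -0.88, Tfrc by -0.67 and Tert by 0.72. Between the treatments 21 were lower and 3 higher after adriamycin than after UV, beside 22.2% and 19.8% of all genes. In p53-/- cells 0 of 35 were called in limma (median -0.06), beside 0.0953% of all genes, and Ccnd2, Tfrc and Tert changed by -0.18, 0.18 and 0.10. With a spread shared over all 18 arrays 3 were called lower there. The difference of the adriamycin effects was called for 14 of the 35 targets, beside 21.7% of all genes. In R1E 11 were lower and 3 higher, beside 11.4% and 10.4% of all genes. Without p53-/- adriamycin replicate 1 or 2 the count was 9.

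**Figure D4:**
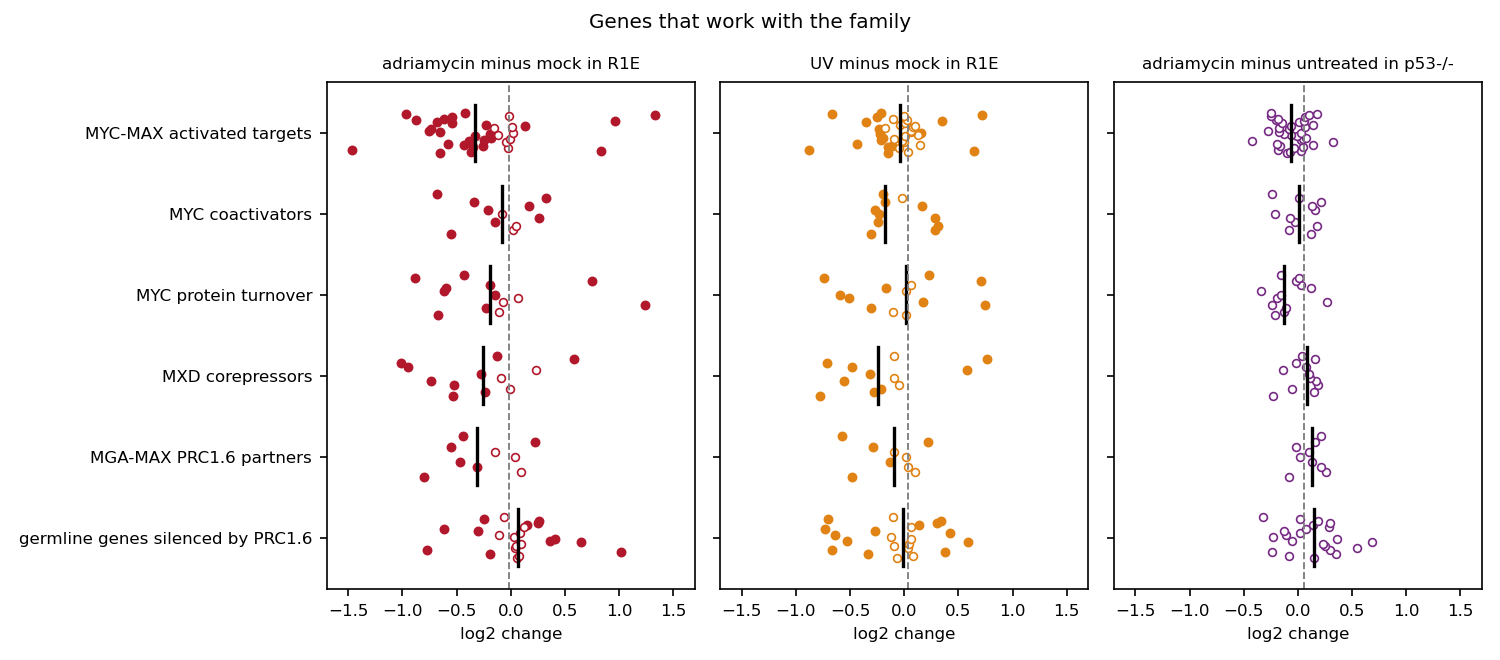
Log2 change of the genes that work with the family, 1 point per gene, in adriamycin against mock and UV against mock in R1E and adriamycin against untreated in p53-/- cells; filled points were called, black bars are list medians and the dashed line is the median of all genes. The MYC-MAX targets have medians of -0.33, -0.04 and -0.06, and all p53-/- points are open.

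Of the MYC coactivators, chromatin factors that MYC brings to its targets, 11 of 12 were measured. After adriamycin in R1E cells 5 fell and 3 rose, beside 25.6% of all genes lower and 22.1% higher. With centred arrays 6 fell and 2 rose, beside 48.4% and 16.5%. After UV 6 fell and 4 rose, beside 21.2% lower and 22.6% higher. With quantile normalization 4 fell and 4 rose after UV, beside 22.7% and 19.9%. Wdr5, a histone methyltransferase subunit that anchors MYC to chromatin, changed by -0.68 after adriamycin and by -0.19 after UV (adjusted p in limma 4.04e-09 and 0.00363). The BAF complex subunits Actl6a and Smarcb1 changed by -0.55 and -0.34 after adriamycin. None of the 11 was called in p53-/- cells, where 0.0953% of all genes were.

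Regulators of MYC protein stability moved both ways. Of 13 measured (14 listed), 8 fell and 2 rose after adriamycin, beside 25.6% of all genes lower and 22.1% higher. After UV 5 fell and 4 rose, beside 21.2% lower and 22.6% higher. With centred arrays 6 fell and 3 rose after UV, beside 28.5% and 15.6%. The risers after adriamycin were Fbxw7, the ubiquitin ligase subunit that marks phosphorylated MYC and MYCN for degradation, and Trim32, a ligase also linked to MYC turnover. Fbxw7 changed by 1.24 after adriamycin and 0.74 after UV (adjusted p in limma 7.42e-12 and 9.29e-09), and Trim32 by 0.75 and 0.71. Usp28, the deubiquitinase that opposes FBXW7 on MYC, changed by -0.88 and -0.74 (adjusted p in limma 1.61e-09 and 2.65e-08). In p53-/- cells Fbxw7 changed by -0.24, Trim32 by -0.01 and Usp28 by 0.01, none called. The difference of the adriamycin effect on Fbxw7 was 1.48 ± 0.14 (adjusted p in the test of the difference 9.19e-07).

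Among the corepressors that MXD proteins and MNT recruit, more were called lower than higher. Of 12 measured (13 listed), 8 fell and 1 rose after adriamycin in R1E cells (median -0.26). Of all genes 25.6% were lower and 22.1% higher there. After UV 7 fell and 2 rose (median -0.25), beside 21.2% of all genes lower and 22.6% higher. With centred arrays 9 were lower after each treatment, beside 48.4% and 28.5% of all genes. Sin3a, the scaffold that binds the MXD proteins directly, changed by -1.01 after adriamycin and by -0.72 after UV (adjusted p in limma 2.65e-11 and 3.99e-09). Sap30 and Ing2, subunits of the SIN3 deacetylase complex, changed by -0.95 and -0.73 after adriamycin. The lone riser after adriamycin, Sin3b, named after its values were seen, is the paralogue of Sin3a and changed by 0.58 after adriamycin and 0.77 after UV. None of the 12 was called in p53-/- cells, where 0.0953% of all genes were. Sin3a changed by -0.02 there.

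The partners of MGA and MAX in PRC1.6 were measured in full. Of 9, after adriamycin 5 fell and 1 rose, beside 25.6% of all genes lower and 22.1% higher. With centred arrays 6 fell and 0 rose, beside 48.4% and 16.5%. After UV 4 fell and 1 rose, beside 21.2% lower and 22.6% higher. With quantile normalization 2 fell and 1 rose after UV, beside 22.7% and 19.9%. Cbx3, a heterochromatin protein, changed by -0.80 after adriamycin, Rybp by -0.55 and Pcgf6, the subunit that defines PRC1.6, by -0.47 (adjusted p in limma 1.41e-05, 2e-04 and 2.89e-07). None was called in p53-/- cells, where 0.0953% of all genes were.

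Germline genes that PRC1.6 silences were called in both directions against mock arrays. Of 22 measured, 7 rose and 5 fell after adriamycin, beside 22.1% of all genes higher and 25.6% lower. The split turned to 4 higher and 7 lower with centred arrays, where 16.5% of all genes were higher and 48.4% lower. With quantile normalization it was 4 higher and 6 lower, beside 21% and 28.1% of all genes. After UV 6 rose and 7 fell, beside 22.6% of all genes higher and 21.2% lower. With centred arrays 5 rose and 10 fell, beside 15.6% and 28.5%. Between the treatments 7 were higher and 1 lower after adriamycin than after UV, beside 19.8% of all genes higher and 22.2% lower. With centred arrays it was 5 and 1, beside 17.1% and 32.2%, and with quantile normalization 6 and 1, beside 19.9% and 22.4%. Hormad1, a meiotic chromosome axis protein, changed by 1.02 after adriamycin and by 0.37 after UV (adjusted p in limma 2.75e-10 and 5.13e-05). Mael, a piRNA pathway protein, changed by -0.78 after adriamycin, and Slc25a31, a testis ADP/ATP carrier, by 0.65 after adriamycin in R1E cells and by 0.69, not called, in p53-/- cells (adjusted p in limma 0.187). None of the 22 was called in p53-/- cells, where 0.0953% of all genes were.

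Genes that lie beside Mycn and Myc did not fall with them after adriamycin in R1E cells. Of these 3 genes 3 were called higher, beside 22.1% of all genes, and 2 with centred arrays, beside 16.5%. Ddx1, an RNA helicase co-amplified with Mycn in human neuroblastoma, lies 277 kb from Mycn in RefSeq with no protein-coding gene between. Its levels were 11.50, 11.44, 11.50 and 11.43 on adriamycin arrays and 11.23, 11.26, 11.28 and 11.20 on mock arrays of R1E cells. These groups did not overlap, and the change was 0.22 ± 0.05 (log2, SE, n = 4 each; adjusted p in limma 0.000807), a call that ended with centred arrays.

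Nbas, a vesicle transport gene 327 kb from Mycn, had 7.95, 7.99, 7.95 and 7.92 after adriamycin, 6.93, 6.999, 6.91 and 7.15 after UV and 7.59, 7.56, 7.72 and 7.55 after mock treatment. It was higher after adriamycin by 0.35 and changed by -0.61 after UV (adjusted p in limma 8.27e-05 and 2.88e-07), so the 3 groups stood apart in the order UV, mock, adriamycin. Pvt1, a long noncoding RNA gene 47.6 kb from Myc, had 7.43, 7.50, 7.85 and 7.38 after adriamycin, 6.90, 6.71, 6.82 and 6.63 after UV and 7.02, 6.88, 7.09 and 6.92 after mock treatment. Adriamycin arrays were all above mock arrays, by 0.56 (adjusted p in limma 5.68e-05), while UV arrays overlapped them (change -0.21, adjusted p in limma 0.0725, called with centred arrays). After adriamycin in p53-/- cells the changes of Ddx1, Nbas and Pvt1 were 0.07, 0.15 and -0.19 and were not called.

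**Figure D5:**
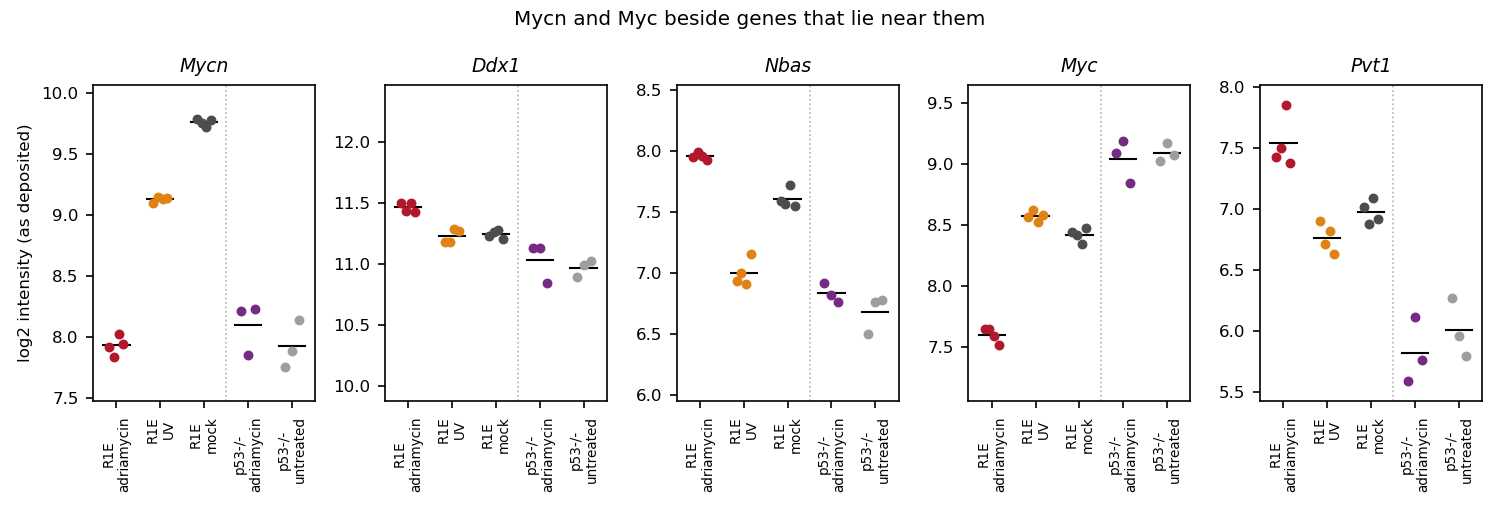
Log2 intensity on every array of Mycn with its neighbours Ddx1 and Nbas, and of Myc with its neighbour Pvt1; points are arrays, bars are group means and the dotted line parts the R1E arrays (n = 4 per group) from the p53-/- arrays (n = 3 per group). After adriamycin in R1E, Mycn and Myc lie below their mock arrays while Ddx1, Nbas and Pvt1 lie above theirs.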

How the data were processed

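Whole-transcript arrays measured RNA from 18 samples. The values are log2 intensities of probe sets, as deposited. Affymetrix Expression Console 1.1 made those of R1E and RMA in Partek 6.4 those of p53-/- cells, per the submitters' processing notes. Which Expression Console method was used, and the array's genome build, are not given in the sources used here. The sets were normalized separately, so levels were tested within a set only.

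Of 28853 probes 28815 had values on all arrays, and 21780 of these named 1 gene symbol (1605 named several, 5430 none). The brightest probe was taken for the 998 genes with several, which leaves 19935 genes. Of the probes naming 1 symbol, 21689 were found by Entrez ID in RefSeq (GRCm38.p6), and 0 symbols changed.

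limma 3.58.1 (R 4.3.3, lmFit, eBayes) was fitted on the deposited values with no filter, over 12 R1E arrays and over 6 p53-/- arrays. The difference of the adriamycin effects was taken from both fits. It was tested by a Welch-type t test: the difference over the root sum of squares of its moderated standard errors, with Welch-Satterthwaite degrees of freedom. Adjusted p-values are Benjamini-Hochberg over all genes, called below 0.05. Mycn minus another member was compared by exact permutation. The scripts were tested on simulated data. The number of arrays limits the precision.

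The members and gene lists were chosen with earlier results of these data known. Besides the members, the text names up to 3 called genes of each list with the largest change after adriamycin in R1E cells, and the 5 genes most correlated with Mycn and with Myc, leaving out clone, prediction and small RNA names. Other genes named (the remaining markers, Prps2, Cad, Pa2g4 and Sin3b) were chosen after their values were seen. Alternatives were other scalings, a filter on dim genes, probe means, eBayes settings, other sets of arrays in the fit, the replicate number as a block and each array left out.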

Additional observations from a re-analysis of the deposited data

Results flagged for a closer look

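The adriamycin effect differed between R1E and p53-/- cells for 9 of the 10 family genes, beside 21.7% of all genes. The test was the Welch-type t test of the difference itself (R1E effect minus p53-/- effect, log2). With 1 array left out the family count was 4 to 9. The differences were -2.003 for Mycn, -0.771 for Myc, -0.734 for Mnt, -0.694 for Mga, -0.547 for Mxd3, -0.449 for Max and -0.434 for Mxi1. They were 0.469 for Mxd1 and 0.938 for Mxd4. Genotype, line, array set and normalization software cannot be told apart in these differences. No array stood apart from its group by Dixon's test in the groups of 4 arrays, 30 sets of values in all.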

How the results depend on the processing

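No called change of a family gene turned its direction under any alternative. The target list was compared by its counts only, so the direction of each target was not followed. The adriamycin calls of all 10 members in R1E cells were the same under all 19 alternatives, and Mycn, Myc, Mxd4 and Mnt kept theirs in the difference of effects. With 1 array left out, the family count was 9 to 9 for adriamycin in R1E, 5 to 8 for UV, 6 to 8 between the treatments, 4 to 9 for the difference of effects and 0 to 0 in p53-/- cells. The target count was 26 to 28, 14 to 17, 23 to 25, 9 to 15 and 0 to 1 in the same order of comparisons, with 1 without p53-/- untreated replicate 3. Mycn ranged over -1.862 to -1.798 after adriamycin in R1E, -0.642 to -0.62 after UV, -1.232 to -1.168 between the treatments, -2.126 to -1.917 for the difference of effects and 0.087 to 0.296 in p53-/- cells. Mycn minus Myc ranged over -1.047 to -0.964 after adriamycin and -0.804 to -0.774 after UV in R1E, each at the smallest exact permutation p that 3 against 4 arrays allows (0.0571), and over 0.057 to 0.416 in p53-/- cells. With 1 fit over 18 arrays and a shared spread, 3 targets were called in p53-/- cells, against 0. Same-numbered arrays correlated at -0.142 to 0.191, so the numbers were not taken as pairing. With the replicate block the family counts were 9, 8, 9, 0 and 9, against 9, 7, 8, 0 and 9 (adriamycin in R1E, UV, adriamycin against UV, adriamycin in p53-/- cells, difference of effects), Mxd3 being the added gene. Mycn minus Myc with the replicate block was -1.012 after adriamycin and -0.787 after UV, with an exact sign-flip permutation p of 0.125, the smallest 4 pairs allow. Mycl was called after UV without mock replicate 4 or UV replicate 1 (adjusted p 0.0421 and 0.0242 in limma). In the difference of effects it was called without p53-/- untreated replicate 3 (Welch-type adjusted p 0.0384). Mxd3 after UV was called under 8 of 19 alternatives, with adjusted p of 0.0108 to 0.0438 in limma.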

Other observations

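The MLX branch, in which MLX replaces MAX as the partner of the glucose-sensing factors MLXIP and MLXIPL and of some MXD proteins, had 5 measured genes. After adriamycin in R1E cells 1 rose, 1 fell and 3 were not called, and after UV 2 rose and 0 fell. With centred arrays 2 rose and 2 fell after UV, beside 15.6% and 28.5% of all genes. Of all genes 47.7% were called after adriamycin and 43.9% after UV, so the list did not stand out by its count. Mlxipl, which drives lipid synthesis genes in liver, changed by 1.21 ± 0.07 after adriamycin and by 0.98 ± 0.07 after UV (log2, SE, n = 4 each; adjusted p in limma 2.39e-10 and 5.98e-09). Mlx changed by -0.21 after adriamycin and by -0.01 after UV (adjusted p in limma 0.00655 and 0.91). In p53-/- cells none of the 5 was called, beside 0.0953% of all genes, and 2 rose with a spread shared over all 18 arrays.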
